A study of Homo sapiens with 8 samples.

Results

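The major histocompatibility complex (MHC) on the short arm of human chromosome 6 was described through the H3K4me2 peaks that lie in it, in RD cells with and without knockdown of LSD1. Its members are the merged peak regions that overlap 29.6 to 33.4 Mb of chromosome 6 in the hg19 build, a window of 3.8 Mb. Peaks of the 4 library lists that shared at least 1 bp were joined into regions, and 166 of the 58952 regions of the genome fell in the window. They were taken apart by their midpoint into a class I part (29.6 to 31.5 Mb, 86 regions), a class III part (31.5 to 32.35 Mb, 45 regions) and a class II part (32.35 to 33.4 Mb, 35 regions). The choice used positions alone and no value of any peak.

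RD is an established human rhabdomyosarcoma line, here at passages 10 to 15. All cells were reverse transfected, with a single siRNA against LSD1 (siLSD1) or with a control siRNA (siCtrl), given fresh medium after 8 h and harvested at 96 h. Each siRNA has 2 ChIP libraries from what the submitters call biological replicates, and an input library for each that was not analysed here. The level of LSD1 and the identity of the cells were not measured in these lists, which hold positions and scores and no expression values.

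H3K4me2 is a chromatin mark found at promoters and enhancers that are active or poised. LSD1, encoded by KDM1A, is a histone demethylase that acts on the mono- and dimethyl forms of H3K4, alongside partner repressors. The MHC is one of the gene-densest stretches of the human genome: its class I genes, such as HLA-B and HLA-C, encode the proteins that show peptides from inside the cell to T cells in nearly all cell types. Class II genes, such as HLA-DRA and HLA-DQB1, serve peptide display in dendritic cells, macrophages and B cells and are silent in most other cells. TAP1, TAP2 and PSMB9 in the same stretch serve the supply of peptides to class I molecules. The class III part holds genes of other kinds, among them the complement genes C2, CFB and C4A, the cytokine gene TNF and the heat shock genes HSPA1A and HSPA1B.

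In the RefSeq gene table at hand, which is on the GRCh38.p14 build and was used for names and order alone, the 38 MHC genes named here were all found. From the telomeric side their order ran HLA-F, HLA-G, HLA-E, HLA-C, HLA-B, MICA and MICB, then LTA, TNF, LTB, BAG6, HSPA1A, HSPA1B, EHMT2, C2, CFB, C4A, C4B, TNXB, AGER and NOTCH4. The order went on with HLA-DRA, HLA-DRB1, HLA-DQA1, HLA-DQB1, TAP2, PSMB8, TAP1, PSMB9, HLA-DMB, HLA-DMA, BRD2, HLA-DOA, HLA-DPA1, HLA-DPB1, RXRB, TAPBP and DAXX. Which gene each hg19 region lies in was not analysed here, so regions are named by position and band.

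The full lists held 33878 peaks in siCtrl replicate 1, 44831 in siCtrl replicate 2, 50587 in siLSD1 replicate 1 and 49611 in siLSD1 replicate 2. The siCtrl replicate 1 list was the shortest. Read depth is unknown, so more marked sequence and deeper sequencing of the siLSD1 libraries cannot be told apart in these lists. Counts are therefore given also for equal numbers of peaks, the 33878 of highest score in each library. Peak scores are the authors' own and are read only within a list. Their top is not resolved: 15, 770, 41 and 191 peaks of the 4 libraries, in the order above, share the score 3100.

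H3K4me2 peaks were dense in the MHC in all 4 libraries. The MHC held 43.7 regions per Mb, against 19.4 over the genome and 19.7 over the rest of chromosome 6. Class III was the densest with 52.9 regions per Mb, class I had 45.3 and class II 33.3. Peaks covered 8.38% of the MHC in siCtrl replicate 1, 9.85% in siCtrl replicate 2, 9.56% in siLSD1 replicate 1 and 10.4% in siLSD1 replicate 2. Over the genome the same libraries had 2.31%, 3.10%, 3.19% and 3.44%. Of 787 blocks of 3.8 Mb tiled over the genome, 18 were covered to a greater share than the MHC's mean of 9.55%, and the median block was at 2.35%. Peak density was thus not particular to the MHC on this arm: the block of equal length on its telomeric side held 51.1 regions per Mb, and that on its centromeric side 41.6.

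Peaks of the MHC also lay high in the score order of their own lists. Their median score percentile was 67.3 and 69.1 in the siCtrl libraries and 66.5 and 65.3 in the siLSD1 libraries. The whole list sits at 50 by construction. In the telomeric neighbour block the medians were 55.8 and 64.1 in siCtrl and 63.1 and 70.7 in siLSD1. That block was thus above the MHC in siLSD1 replicate 2. The centromeric block had 53.7 and 55.7 in siCtrl and 51.5 and 59.6 in siLSD1. The top 10% of scores took in 13.7%, 17.1%, 14.0% and 15.3% of MHC peaks in siCtrl replicates 1 and 2 and siLSD1 replicates 1 and 2. In the same order it took in 3.16%, 12.2%, 11.3% and 11.1% of the telomeric block's peaks. For the centromeric block it was 8.57%, 10.8%, 6.49% and 7.69%. Class III had 18.6%, 18.9%, 20.8% and 20.0% of its peaks there, class II 15.6%, 25.8%, 16.2% and 22.9%, and class I between 9.3% and 12.5%. Class III thus led in the replicates numbered 1 and class II in those numbered 2, with class I last in all 4.

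The sequence under peaks came to 318.6 kb in siCtrl replicate 1, 374.4 kb in siCtrl replicate 2, 363.4 kb in siLSD1 replicate 1 and 395.9 kb in siLSD1 replicate 2. The groups overlapped, since siCtrl replicate 2 lay above siLSD1 replicate 1. The means were 346.5 ± 39.5 kb for siCtrl and 379.6 ± 23.0 kb for siLSD1 (SD, n = 2), a difference of 33.1 kb that did not exceed the spread between replicates (two-sided exact permutation test, p = 0.667, adjusted p = 0.833 over 5 values). With 2 libraries against 2 this test cannot give a p under 0.333, and it measures the spread between these libraries. The siLSD1 to siCtrl ratio was 1.1 in the MHC and 1.23 over the genome. Without siCtrl replicate 1 the difference was 5.22 kb.

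Among the parts of the MHC, class I alone had both siLSD1 libraries above both siCtrl libraries, narrowly. It had 136.2 and 163.5 kb in siCtrl against 165.2 and 181.1 kb in siLSD1. This separation was not particular to class I. The genome and the centromeric neighbour block had it too, with siLSD1 to siCtrl ratios of 1.23 and 1.2. In the telomeric neighbour block and the rest of chromosome 6 the groups overlapped, with ratios of 1.06 and 1.22. The class I difference of 23.3 kb, a ratio of 1.16, reached the smallest p the exact permutation test allows (p = 0.333, adjusted p = 0.833). With equal numbers of peaks the class I groups overlapped and the difference was 8.03 kb. It was 9.6 kb without siCtrl replicate 1. Class III had 102.8, 114.9, 114.8 and 120.0 kb in siCtrl replicates 1 and 2 and siLSD1 replicates 1 and 2. The 2 middle values nearly coincide, so the groups overlap, with a difference of 8.47 kb (exact permutation p = 0.667, adjusted p = 0.833). Class II had 79.6, 95.9, 83.4 and 94.8 kb in the same order. Here the replicates numbered 1 were low and those numbered 2 were high whatever the siRNA. The class II means differed by 1.38 kb (exact permutation p = 1.0, adjusted p = 1.0). That order was not particular to class II. The whole MHC, class III, the telomeric neighbour block and the rest of chromosome 6 had it too, while class I and the genome did not.

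As a share of everything covered in its library, the MHC took 0.454% in siCtrl replicate 1, 0.398% in siCtrl replicate 2, 0.375% in siLSD1 replicate 1 and 0.379% in siLSD1 replicate 2. Both siLSD1 shares were the lower ones, and siCtrl replicate 1 stood above the other siCtrl library. The share was 0.426 ± 0.0399% in siCtrl and 0.3771 ± 0.00285% in siLSD1 (SD, n = 2), and the difference of -0.0489 percentage points carried an exact permutation p of 0.333 (adjusted p = 0.833). With equal numbers of peaks the groups were still apart, but the difference shrank to -0.0186. Without siCtrl replicate 1 it was -0.0207. With all peaks the telomeric neighbour block was apart in the same direction. Its shares were 0.4529% and 0.4717% in siCtrl and 0.3972% and 0.4075% in siLSD1. In the centromeric block and the rest of chromosome 6 the groups overlapped.

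**Figure D1:**
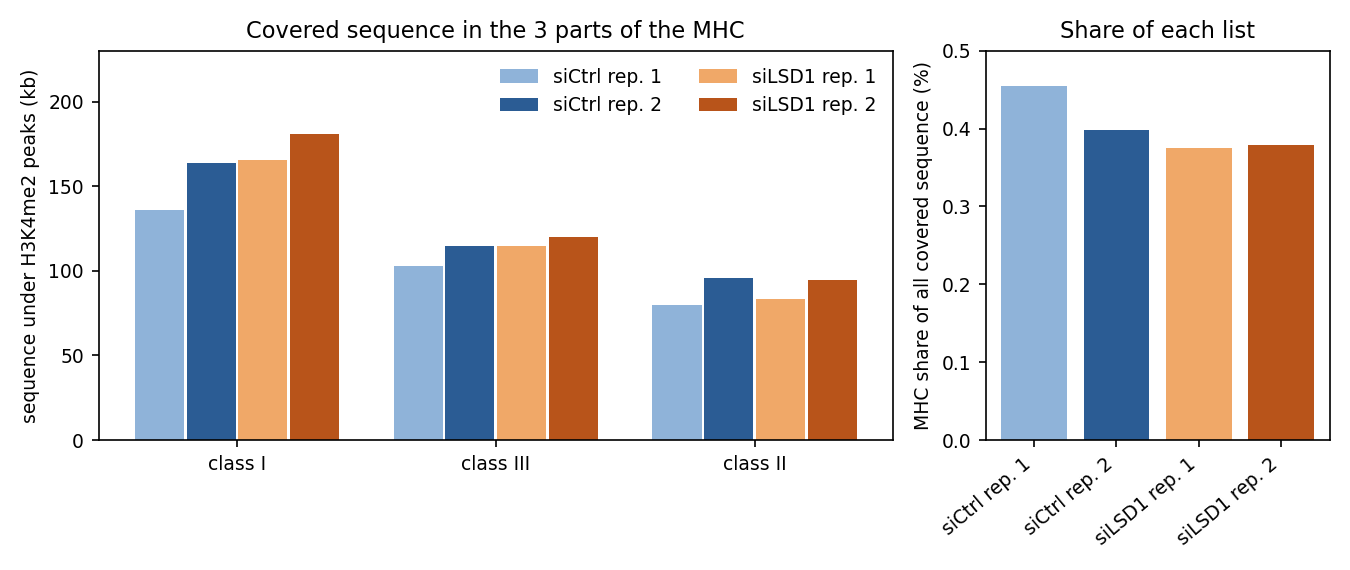
Sequence under H3K4me2 peaks in kb for the 3 parts of the MHC (left) and the MHC's share of all covered sequence in percent (right), 1 bar per library with no error bar. Class I goes from 136.2 kb in siCtrl replicate 1 to 181.1 kb in siLSD1 replicate 2. Class II and, narrowly, class III order by replicate number, and the share is highest in siCtrl replicate 1.

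Most MHC regions were marked in all 4 libraries. Such common regions numbered 111 of 166 (66.9%), where 45.2% of all regions of the genome were common. The telomeric neighbour block reached 64.9%, the centromeric one 51.9% and the rest of chromosome 6 41.8%. By part, 52 of 86 class I regions (60.5%), 32 of 45 class III regions (71.1%) and 27 of 35 class II regions (77.1%) were common. The order of the 3 parts by this share is thus not their order by density, in which class II came last.

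Gained regions, with a peak in both siLSD1 libraries and in neither siCtrl library, numbered 8 of 166 in the MHC (4.82%), below the 6.97% of regions gained over the genome. Of these, 3 lay in class I, 2 in class III and 3 in class II, or 3.49%, 4.44% and 8.57% of the regions there. No region of the MHC was lost, the reverse pattern, where 1.04% of all regions were lost. A count of 0 of 166 allows a share of up to 1.81%, so this count is too small to tell the MHC from the genome. The telomeric neighbour block had 4 gained and 4 lost regions of 194. Without siCtrl replicate 1, 11 regions of the MHC were gained (6.67%, with 7.9% over the genome) and 4 lost (2.42%, with 7.05% over the genome).

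Equal numbers of peaks changed these counts. Of 139 MHC regions then formed, 5 were gained (3.6%, with 3.29% over the genome) and 3 were lost (2.16%, with 3.42% over the genome). Another 98 were common (70.5%, with 54.4% over the genome). Of the 5 gained, 4 were also gained with all peaks, whereas 0 of the 3 lost were also lost with all peaks. Those 3 were chr6:30719504-30721042 and chr6:31104930-31106218 in class I and chr6:32038658-32041328 in class III. With all peaks, the second of them has a peak of 1.122, 1.249, 1.124 and 1.2 kb in siCtrl replicates 1 and 2 and siLSD1 replicates 1 and 2, so its siLSD1 peaks exist but rank below the first 33878. Both others keep a siLSD1 replicate 1 peak, of 1.506 and 1.191 kb, and have none in siLSD1 replicate 2.

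**Figure D2:**
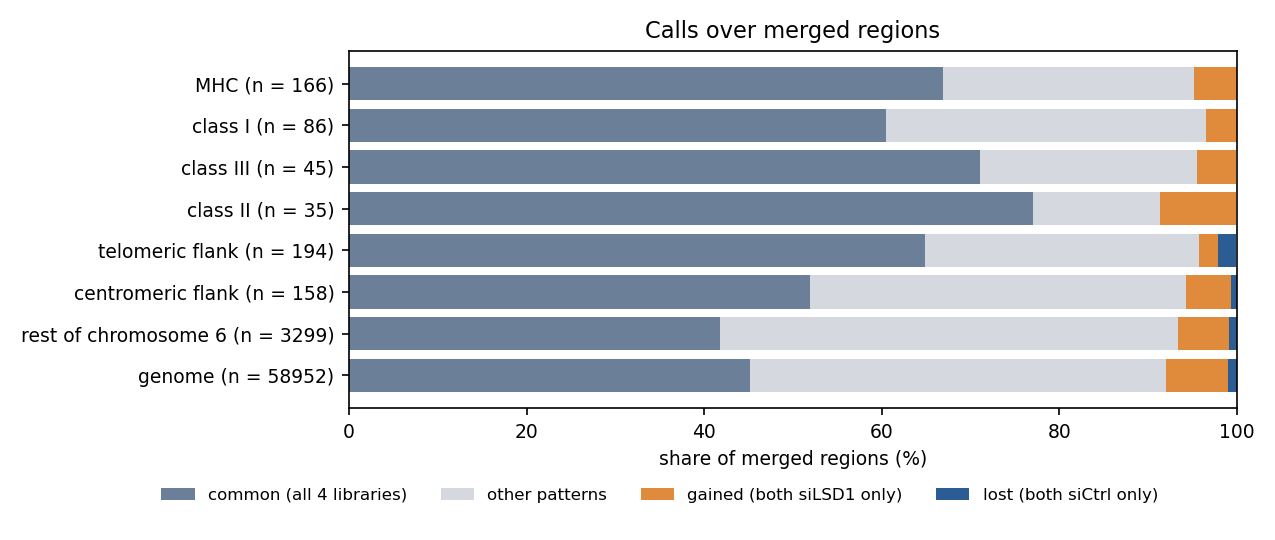
Share of merged regions in percent that were common to all 4 libraries, gained, lost or of another pattern, for the MHC, its 3 parts, the neighbouring blocks, the rest of chromosome 6 and the genome, with the number of regions beside each name. Common regions make up 66.9% of the MHC against 45.2% of the genome, and the MHC and its parts have no lost segment.

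The 3 gained class I regions were all in band 6p21.33. The one of highest score in the pooled siLSD1 list, 263.47, was chr6:31213486-31214683, with 0 kb in both siCtrl libraries and 1.191 and 1.097 kb in siLSD1 replicates 1 and 2. Next came chr6:31081792-31083798 with 0 kb in both siCtrl libraries, 1.76 and 1.973 kb in siLSD1 and a pooled score of 256.98. The third, chr6:30411493-30412612, had 0 kb in both siCtrl libraries, 1.074 and 0.971 kb in siLSD1 and a pooled score of 147.1. All 3 were peaks of middling or low rank, between the 23.8 and the 51.3 percentile of their siLSD1 lists. The third also overlapped a peak of the pooled siCtrl list, with a score of 50.65, next to the lowest score that list holds.

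In class III, chr6:31527250-31528836 had 0 kb in both siCtrl libraries and 1.587 and 1.41 kb in siLSD1, with a pooled siLSD1 score of 251.94. The other, chr6:31665193-31665992, had 0 kb in both siCtrl libraries, 0.679 and 0.8 kb in siLSD1 and a pooled score of 74.5. It was the weakest of the 8, at the 5.06 and 1.13 percentiles of the siLSD1 lists, with scores of 56.05 and 51.28 next to the lowest that the lists hold.

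Class II had its gained regions in band 6p21.32. At chr6:33312618-33313629 the siCtrl libraries had 0 kb and the siLSD1 libraries 0.819 and 1.012 kb, with a pooled score of 214.49. At chr6:33228154-33229575 they had 0 kb and 1.422 and 0.894 kb, with a pooled score of 178.26. The 2 siLSD1 libraries ranked this second peak far apart, at the 54.3 and the 2.1 percentile. The third, chr6:32577592-32578319, with 0 kb in both siCtrl libraries and 0.523 and 0.728 kb in siLSD1, scored 124.08 and was the most isolated: its nearest common region lay 185.8 kb away, where the other 7 gained regions had one within 2.739 to 23.646 kb.

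The remaining 47 regions had mixed patterns. The most frequent was a peak in all libraries but siCtrl replicate 1, seen at 15 regions (9.04%, with 11.5% over the genome), 12 of them in class I. Another 6 had a peak in siCtrl replicate 2 and siLSD1 replicate 2 alone. Among regions found in a single library, siCtrl replicates 1 and 2 accounted for 1 and 4 and siLSD1 replicates 1 and 2 for 5 and 9. The fewer libraries a region had, the narrower it was: median widths were 961 bp for 1 library, 1159 bp for 2, 1390.5 bp for 3 and 2893 bp for 4. The median of each region's best score percentile went the same way, 13.8, 31.1, 40.1 and 85.0. Width spans the peaks of all libraries of a region and the best percentile is their highest. Both can therefore only grow as libraries are added. Regions of the genome ran alike, with 963, 1339, 1614 and 2789 bp and percentiles of 12.2, 29.1, 44.0 and 79.0.

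Across the MHC the covered sequence was high and low in the same places in all 4 libraries. Of 38 bins of 100 kb, the fullest was chr6:33200001-33300000 at the centromeric end of class II, with 27.14, 30.192, 29.669 and 31.581 kb in siCtrl replicates 1 and 2 and siLSD1 replicates 1 and 2. In class III chr6:31700001-31800000 led with 21.634, 26.117, 22.04 and 26.143 kb, and in class I chr6:30600001-30700000 with 22.601, 24.926, 21.805 and 24.672 kb. In none of these 3 bins were the siLSD1 libraries both above the siCtrl libraries. Of the 36 MHC bins with a peak, 11 (30.6%) had both siLSD1 values above both siCtrl values and 0 had both below, where 34.7% and 4.64% of such bins of the genome did.

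The emptiest sequence lay in the telomeric part of class II. Both bins with no peak in any library were chr6:32400001-32500000 and chr6:32600001-32700000. Counting the pooled lists too, the longest peak-free stretch was chr6:32384169-32577582, 193.4 kb long, followed by chr6:32578320-32764153 with 185.8 kb. The isolated gained region described above is all that parts them. The next stretch, chr6:32224168-32383050 with 158.9 kb, crosses from class III into class II, and its class III piece of 125.8 kb was the longest of that part. In class I the longest was chr6:29761308-29854323 with 93.0 kb. Common regions of class II were 12.4 kb apart at the median, as in class III, against 23.5 kb in class I, while the largest distance between common neighbours was 380 kb in class II, 126 kb in class I and 71.8 kb in class III.

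**Figure D3:**
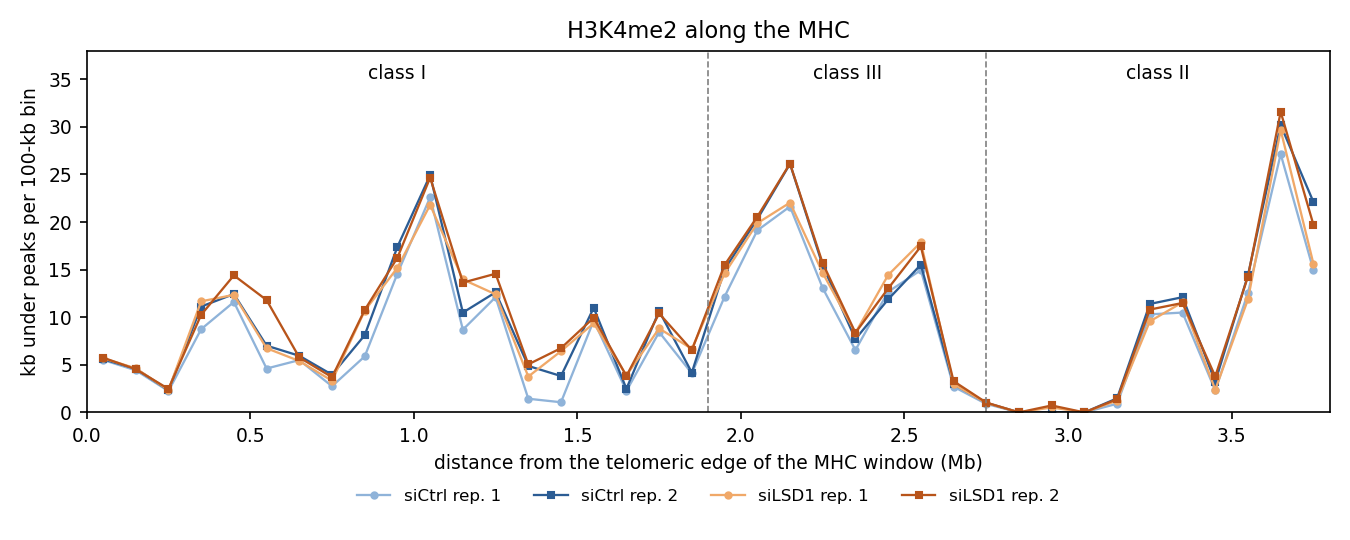
Sequence under peaks in kb per 100-kb bin against the distance in Mb from the telomeric edge of the MHC window, 1 line per library, with dashed lines at the borders of the 3 parts. The 4 lines follow each other, peak at 27.14 to 31.581 kb near the centromeric end of class II and are at or near 0 in its telomeric part.

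In class I the broadest common region was chr6:30646838-30659913, with 10.598, 11.446, 11.553 and 13.076 kb under peaks in siCtrl replicates 1 and 2 and siLSD1 replicates 1 and 2. The siLSD1 libraries were the broader ones, though siLSD1 replicate 1 exceeded siCtrl replicate 2 by little, and limma gave an adjusted p of 0.722 for this region. The next, chr6:30847990-30855153, was nearly constant at 7.011, 7.136, 7.01 and 7.148 kb. The others were chr6:31366545-31373125 (5.242 to 6.581 kb) and chr6:30581686-30587409 (4.889 to 5.583 kb), in both of which the groups overlapped. The first 3 of these 4, and chr6:30067911-30071946, share the score 3100 in the pooled siCtrl list and cannot be ranked among themselves.

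In class III the broadest was chr6:31700946-31709223, with 7.39 and 7.833 kb in siCtrl and 8.033 and 8.217 kb in siLSD1. The groups did not overlap, and limma's adjusted p was 0.793. The next 3 overlapped between groups: chr6:31801494-31807415 had 4.967 to 5.719 kb, chr6:31793642-31799293 had 5.161 to 5.652 kb and chr6:32141892-32147801 had 5.058 to 5.673 kb. The highest pooled siCtrl score in class III, 3215.43, belonged to chr6:31630328-31635426, whose breadth was 4.83, 5.099, 4.577 and 4.903 kb.

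In class II the broadest was chr6:32933456-32944346, with 9.751 and 10.509 kb in siCtrl and 10.129 and 10.409 kb in siLSD1. Its siLSD1 values lay between the siCtrl values. Its scores were modest for that breadth, 435.41 to 1482.37 in the libraries, or the 80.1 to 95.6 percentile. The next were chr6:33238244-33245867 (7.193 to 7.554 kb), chr6:33391948-33397048 (4.528 to 5.037 kb) and chr6:33264765-33269449 (3.931 to 4.685 kb), again with overlapping groups. Beside chr6:33391948-33397048, chr6:33215260-33218783 held the score 3100 in the pooled siCtrl list, with 2.932 to 3.524 kb.

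Over all 111 common regions of the MHC, mean breadth ran from 0.827 to 11.7 kb with a median of 2.48 kb, and 11 (9.91%) were at least 5 kb broad, where the genome had 6.86%. The mean over regions was 2801 bp in siCtrl replicate 1, 3106 bp in siCtrl replicate 2, 2935 bp in siLSD1 replicate 1 and 3113 bp in siLSD1 replicate 2. The replicates numbered 2 were the broader ones under both siRNAs.

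At 32 common regions of the MHC (28.8%) each siLSD1 library was broader than each siCtrl library, close to the 30.3% of common regions over the genome. They were narrower at 9 (8.11%), where the genome had 9.62%. With all 4 libraries the parts were uneven. In class I 20 of 52 regions were broader (38.5%), in class III 10 of 32 (31.2%) and in class II 2 of 27 (7.41%). Narrower were 4, 4 and 1 (7.69%, 12.5% and 3.7%). These counts moved with the libraries used. Without siCtrl replicate 1, 36 regions of the MHC were broader (32.4%, with 35.0% over the genome) and 41 narrower (36.9%, with 33.0% over the genome). In class II 3 were then broader (11.1%) and 14 narrower (51.9%). Without siCtrl replicate 2 the MHC had 70 broader (63.1%, genome 63.6%) and 12 narrower, without siLSD1 replicate 1 it had 56 (50.5%, genome 53.3%) and 14, and without siLSD1 replicate 2 it had 43 (38.7%, genome 39.7%) and 32 (28.8%, genome 25.2%). The difference between the parts was not tested.

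limma, fitted to log2 breadth over all 26653 common regions, called 0 regions of the genome broader and 0 narrower at an adjusted p under 0.05 (0% and 0%), and none in the MHC. The smallest adjusted p in the MHC was 0.261. At an unadjusted p under 0.05, 7 of the 111 MHC regions were broader and 3 narrower, against 7.11% and 1.58% over the genome. Of the 7, 6 were in class I and 1 in class III, and of the 3, 2 were in class I and 1 in class II. The median log2 change over MHC regions was 0.06, and 0.08 over all common regions. Quantile normalization shifted the median of all regions by -0.11, after which the MHC median was -0.05 and 3 MHC regions were broader and 5 narrower at the unadjusted threshold. At that threshold 1442 of the 26653 regions of the genome were then broader and 1069 narrower. Relative to all regions the MHC median stood at -0.02 on either scale, so the sign of its own change depends on the scaling.

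**Figure D4:**
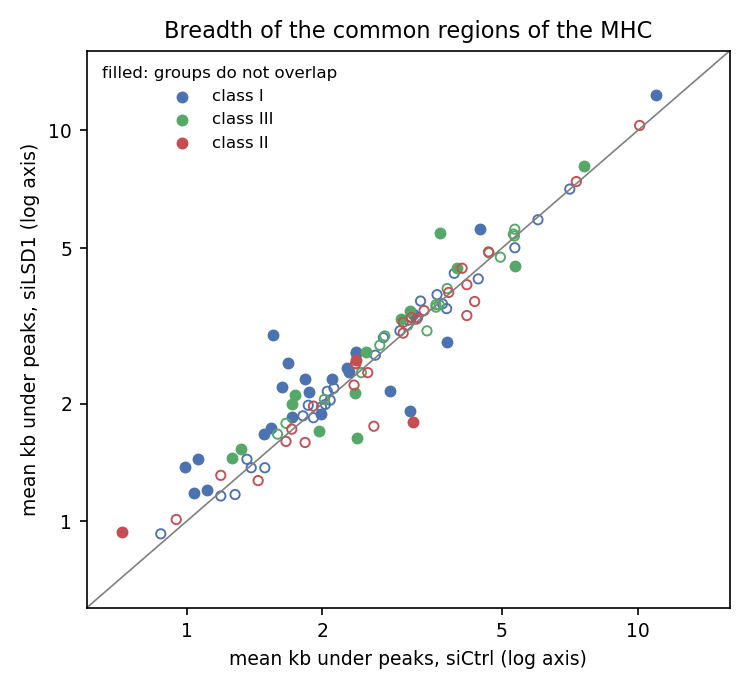
Mean kb under peaks in the siLSD1 libraries against the siCtrl libraries for the 111 common regions of the MHC, on log axes, colored by part, each point a mean of 2 libraries. Filled points are the 32 broader and 9 narrower regions whose groups do not overlap, and 20 of the 32 lie in class I.

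Among regions whose groups did not overlap, the most widened in class I was chr6:30121941-30125179 in band 6p22.1, with 1.011 and 2.087 kb in siCtrl and 2.92 and 3.08 kb in siLSD1. The siCtrl libraries differed from each other by more than the siLSD1 libraries did. On the log2 scale it widened by 1.05 ± 0.365 (SE), and limma's adjusted p was 0.546. In class III it was chr6:32155231-32161226, with 3.54 and 3.759 kb in siCtrl and 5.293 and 5.606 kb in siLSD1. It carried the smallest p of the MHC, a log2 change of 0.58 ± 0.099 (SE) with limma's unadjusted p at 0.00267 and adjusted p at 0.261. Its score did not go up with its breadth: it lay at the 94.2 and 94.9 percentiles in siCtrl and at 82.0 and 94.2 in siLSD1. In class II the most widened, chr6:32908084-32909171, was small, with 0.739 and 0.695 kb in siCtrl and 0.786 and 1.088 kb in siLSD1 (limma adjusted p = 0.757).

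The most narrowed region of class I was chr6:30688983-30692480, with 2.88 and 3.356 kb in siCtrl and 1.624 and 2.19 kb in siLSD1. In class III it was chr6:31505852-31511501, with 5.038 and 5.65 kb in siCtrl and 4.432 and 4.583 kb in siLSD1. In class II it was chr6:33376997-33380472, with 2.861 and 3.476 kb in siCtrl and 1.564 and 2.009 kb in siLSD1. All 3 had both siLSD1 values under both siCtrl values, by log2 changes of -0.72, -0.24 and -0.83. limma's adjusted p-values for them were 0.408, 0.622 and 0.334, so none passed. Pooled scores at the class I, class III and class II regions were 1120.99, 1615.02 and 877.22 in the siCtrl list. In the siLSD1 list they were 384.34, 2103.3 and 476.86, each a value of its own list. The class III score was thus the higher one in the siLSD1 list, unlike the others.

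**Figure D5:**
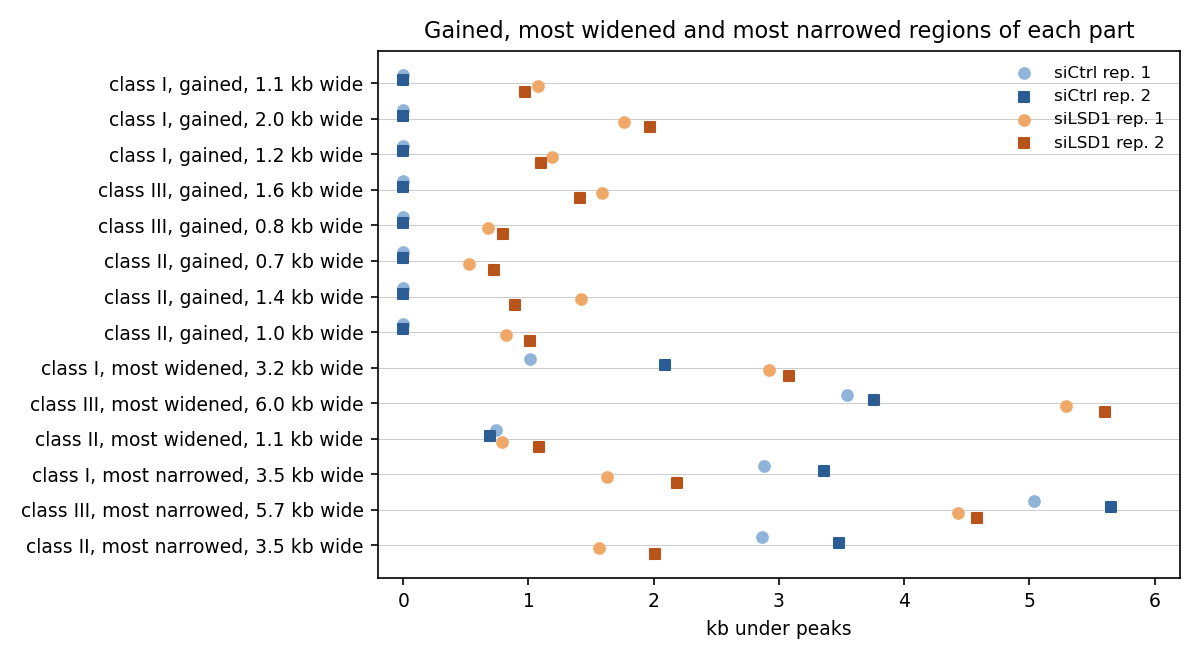
Sequence under peaks in kb in each library for the 8 gained regions and the most widened and most narrowed common region of each part, 1 point per library, with the region's full width beside its part. Gained regions sit at 0 in both siCtrl libraries and between 0.523 and 1.973 kb in siLSD1, and the class III widened region goes from 3.54 and 3.759 kb to 5.293 and 5.606 kb.

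The deposited pooled lists, 1 per siRNA, are named as pools of the same replicates and so are not independent of the library lists. The siCtrl list had 138 MHC peaks over 397.7 kb and the siLSD1 list 163 over 446.7 kb. The whole siLSD1 list was also the longer one, with 56860 peaks over 132.2 Mb against 45219 over 107.3 Mb. Of the 163, 25 (15.3%) overlapped no pooled siCtrl peak, under the 27.0% of the whole siLSD1 list. Of the 138, 2 (1.45%) overlapped no pooled siLSD1 peak, where 8.86% of the whole siCtrl list did not. Class I held 12 of the 25, class III 7 and class II 6, and both of the 2 lay in class I.

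Library support for these pooled peaks was mixed. The shares for all such peaks of the genome are not given, so the support cannot be set against the genome. Of the 25 in the siLSD1 list, 7 had a peak in both siLSD1 libraries and in no siCtrl library, 11 had one in a single siLSD1 library, 3 in none, and 4 met a siCtrl library peak after all. The strongest was chr6:31213486-31214827, score 263.47, at the gained region that heads class I. Of the 2 in the siCtrl list, chr6:31147827-31148925 (score 68.25) had a peak in siCtrl replicate 2 alone and chr6:29894487-29895178 (score 53.86) in no library. With equal numbers of peaks from both pooled lists, 13 MHC peaks were in the siLSD1 list alone and 6 in the siCtrl list alone. The shares over all pooled peaks are not given for that setting, so these counts cannot be set against the genome.

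Covered sequence was shared between libraries to a greater degree in the MHC than over the genome. The siCtrl libraries had 79.6% of their joint covered sequence in common and the siLSD1 libraries 80.9%, against 66.3% and 69.9% over the genome. Across siRNAs the 4 pairs of libraries shared 74.2% to 81.2% in the MHC. The highest of these, siCtrl replicate 2 with siLSD1 replicate 2, exceeded both pairs within an siRNA with all peaks. With equal numbers of peaks this pair and the siCtrl pair both shared 81.9%, and the siLSD1 pair 80.3%. In class I, with equal numbers, the pairs within an siRNA shared 81.6% (siCtrl) and 77.2% (siLSD1). The pairs across siRNAs shared 72.2% to 77.1%, so the siLSD1 pair was barely above them. With all peaks the class I siCtrl pair shared 76.8%, below the 77.8% of siCtrl replicate 2 with siLSD1 replicate 2. With equal numbers this cross pair was the highest in class III (87.3%, against 83.3% and 86.6% within an siRNA). It was also the highest in class II (83.5%, against 80.7% and 78.1%).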

How the data were processed

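The deposited files are peak lists, 1 for each of 4 H3K4me2 ChIP libraries and 1 pooled list per siRNA. Per the submitters' processing notes, reads were aligned with Bowtie to hg19. Peaks are named after MACS in the files. Its version and settings, the role of the inputs and the pooling of replicates were not given in the sources used here. Positions were used as deposited by the authors, counted from 1. The score of each peak is the authors' value. With minima of 50.0 to 50.01 it has the look of a p-value on a scale of minus 10 log10, and it was used within a list only.

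Peaks on chromosomes 1 to 22 and X were merged into regions by 1 bp of overlap. For library totals the test was an exact permutation test, two-sided, with Benjamini-Hochberg adjustment over 5 values. Breadth, the bp under peaks in a region, was compared with limma 3.58.1 (trend and robust, R 4.3.3, statmod 1.5.0) over all regions with a peak in all 4 libraries, and p-values were adjusted over all of them with a threshold of 0.05. Python 3.11.15 served for all else (pandas 2.3.3, numpy 2.4.6, matplotlib 3.10.9, scipy 1.17.1), and bands came from circlize 0.4.16. Merging and limma were tested on simulated data.

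Regions named are, per part, the 4 broadest common regions, those of highest pooled score, the most widened and most narrowed among those whose groups do not overlap, all gained and lost regions, the longest peak-free stretch and the fullest bins. Other regions given were chosen after their values were seen. One further gene is not reported here. The members and lists were chosen with earlier results of these data known. Alternatives were equal numbers of peaks, the upper 50% by score, other overlap rules, pooled lists merged in, other scaling and filters, a replicate block and leaving out each library. Leaving out libraries from the counts of broader and narrower regions was added after seeing the data.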

Additional observations from a re-analysis of the deposited data

How the results depend on the processing

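The number of gained MHC regions was 8 with all peaks (4.82%, genome 6.97%) and 5 with equal numbers of peaks (3.6%, genome 3.29%). It was 4 with the upper 50% of each list by score (3.67%, genome 6.33%) and 11 to 23 when a library was left out. Lost regions, 0 with all peaks, were 3 with equal numbers and 0 to 4 with a library left out. Leaving out a library makes these calls easier, since 1 library then stands for its group. Without siCtrl replicate 2, 23 regions were gained (13.9%, genome 19.5%) and 3 lost (1.81%, genome 2.54%). Without siLSD1 replicate 1, 18 were gained (11.1%, genome 17.9%) and 2 lost (1.23%, genome 2.49%). Without siLSD1 replicate 2 the gained were 14 (8.75%, genome 16.8%). The 4 lost came without siCtrl replicate 1. The class II difference in covered sequence changed sign with equal numbers of peaks (-0.508 kb) and ran from -6.81 kb without siCtrl replicate 1 to 9.57 kb without siCtrl replicate 2, with -4.31 kb without siLSD1 replicate 2. For the whole MHC the difference ran from 5.22 to 61.0 kb with a library left out. Pooled siLSD1 peaks alone numbered 13, and pooled siCtrl peaks alone 6, with equal numbers, where no genome share is given. With a library left out, broader common regions ran from 36 to 70 (32.4% to 63.1%, genome 35.0% to 63.6%). Narrower ones ran from 12 to 41 (10.8% to 36.9%, genome 13.8% to 33.0%). The cause of these changes was not tested. limma called 0 MHC regions in every setting run. With a replicate block it called 0 broader and 0 narrower. At an unadjusted p under 0.05 it then gave 6 and 5 of the 111 MHC regions, and 2610 and 573 of the 26653 over the genome. Deviations of libraries with the same number correlated at 0.188 across regions, and with 2 pairs the numbers were not taken as pairs. Among alternative values of the main comparisons, 72 kept their direction and side of the threshold or, for counts, stayed within 1.5 times. Another 16 moved and 3 changed sign. For covered sequence and the MHC share only the sign could change, since the exact permutation p cannot go under 0.333. The limma counts of 0 are also among the 72, so this tally is no measure of robustness.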
